A study of Homo sapiens with 6 samples.

Results

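The 43 genes described here build the kinetochore, run the spindle assembly checkpoint and the exit from mitosis, and carry out cytokinesis. They were taken by symbol from a list of such genes, and all 43 were found among the 58299 genes of the count table. The list was chosen with earlier results of these data known. RNA was sequenced from AC16 cells, an immortalised human line made by fusing adult ventricular heart cells with transformed fibroblasts. The control cells (3 libraries) had 0.1% DMSO for 72 h. The treated cells (3 libraries) had 100 nM CDDO-Me for 24 h and then 100 nM doxorubicin for 48 h, which also comes to 72 h in all. The labels leave unclear whether CDDO-Me remained in the medium with doxorubicin, and they define no group with either compound alone, so no difference below belongs to 1 compound. CDDO-Me is a triterpenoid that releases the transcription factor NRF2 from KEAP1, and doxorubicin, an anthracycline used against cancer, poisons topoisomerase II.

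A chromosome is held by the spindle through its kinetochore. CENPA marks the centromere in place of ordinary histone H3, a network of CENP proteins binds it, and the outer complexes named for NDC80, MIS12 and KNL1 grip microtubules. While any kinetochore is unattached, the checkpoint proteins MAD1, MAD2, BUB1, BUBR1 and BUB3 keep CDC20 from switching on the anaphase-promoting complex, APC/C. Once attachment is complete, APC/C destroys securin and cyclin B, separase opens cohesin, and anillin, ECT2 and the centralspindlin complex close the cleavage furrow. Most of these genes are transcribed from late S phase to mitosis. Many carry near their start a short element called CHR (cell cycle genes homology region), which the MuvB core of the DREAM complex binds to silence them in quiescent or arrested cells.

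Depth was 17150259 to 20193957 counts in genes per library, and the first principal component, 88.1% of the variance, parted treated from control libraries. The labels do not say that replicates came from separate cultures, so every p-value below is set against a library-to-library spread that may be only technical. Of 14 cardiomyocyte markers only TTN and GATA4 reached a mean of 1 CPM in either group, and TNNI3 had 0 counts in every library. The summed level was 26.3 to 28.8 CPM in the control and 25.7 to 30.9 CPM in the treated libraries. Within that sum TTN rose (log2 change 0.47), while GATA4 (-0.33) and NPPB (-3.85, from a mean below 1 CPM) fell. All 10 fibroblast markers were above 1 CPM, with a summed level of 24476 to 26964 CPM (library-size-scaled counts, normalised by TMM) in the control and 13163 to 13991 CPM in the treated libraries. VIM hardly changed (-0.03) and every other one fell, with log2 changes from -0.63 for FN1 to -2.42 for PDGFRB. The 5 endothelial markers summed to 21.6 to 24.4 CPM in the controls and 11.4 to 12.1 CPM in the treated cells. TEK made up most of that sum and fell (log2 change -1.56), while PECAM1 (1.96) and KDR (0.77) rose from low levels. The 4 leukocyte markers summed to 2.003 to 3.08 CPM in the controls and 4.91 to 5.66 CPM in the treated cells, with PTPRC higher (1.78). The part of these marker levels in the results was not tested.

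Most of the 43 genes fell with treatment, and a small set rose. DLGAP5, HMMR and CENPA dropped to between 27.8% and 31.1% of control, and the passenger gene CDCA8 (34.2%) and the furrow scaffold ANLN (33.6%) to little more. MAD1L1, CENPU, MIS12, DSN1, ZWINT and BUB3 rose. In edgeR's quasi-likelihood test, adjusted over all 15575 genes tested, 37 of the 43 were called lower and 6 higher at an adjusted p below 0.05. In the same test 63.5% of all tested genes were called, 31.2% lower and 32.3% higher, so being called says little on its own here. A fall of at least 2-fold was called in 18 of the 43, against 4.62% of all tested genes. No member rose by 2-fold. The median log2 change, treated minus control, was -0.87, and that of all tested genes was 0.02. The levels of the 3 treated and 3 control libraries did not overlap in 41 of the 43 genes, and in 66.7% of all tested genes; CENPM and PTTG1 overlapped. The adjusted p of the 43 genes ran from 1.21e-38 for ANLN to 0.0266 for CENPM. In RNA from whole cultures, fewer cells in or near mitosis and less RNA in each such cell cannot be told apart.

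Summed over the 43 genes, the level was 7474, 7395 and 7566 CPM in the controls and 4312, 4195 and 4272 CPM in the treated libraries. The treated sum was 57.0% of the control sum, and 60.6% without ANLN, the most abundant of them. Libraries of a group lay close together: the median coefficient of variation was 4.05% in the controls and 3.69% in the treated cells, beside 5.05% and 4.45% over all tested genes of at least 10 CPM. Treated replicate 1 held the highest treated value of 23 of the 43 genes and treated replicate 2 the lowest of 20, where 32.5% and 31.9% of all tested genes did. These offsets within a group are small beside the gap between the groups, as the map of the genes by library shows.

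**Figure D1:**
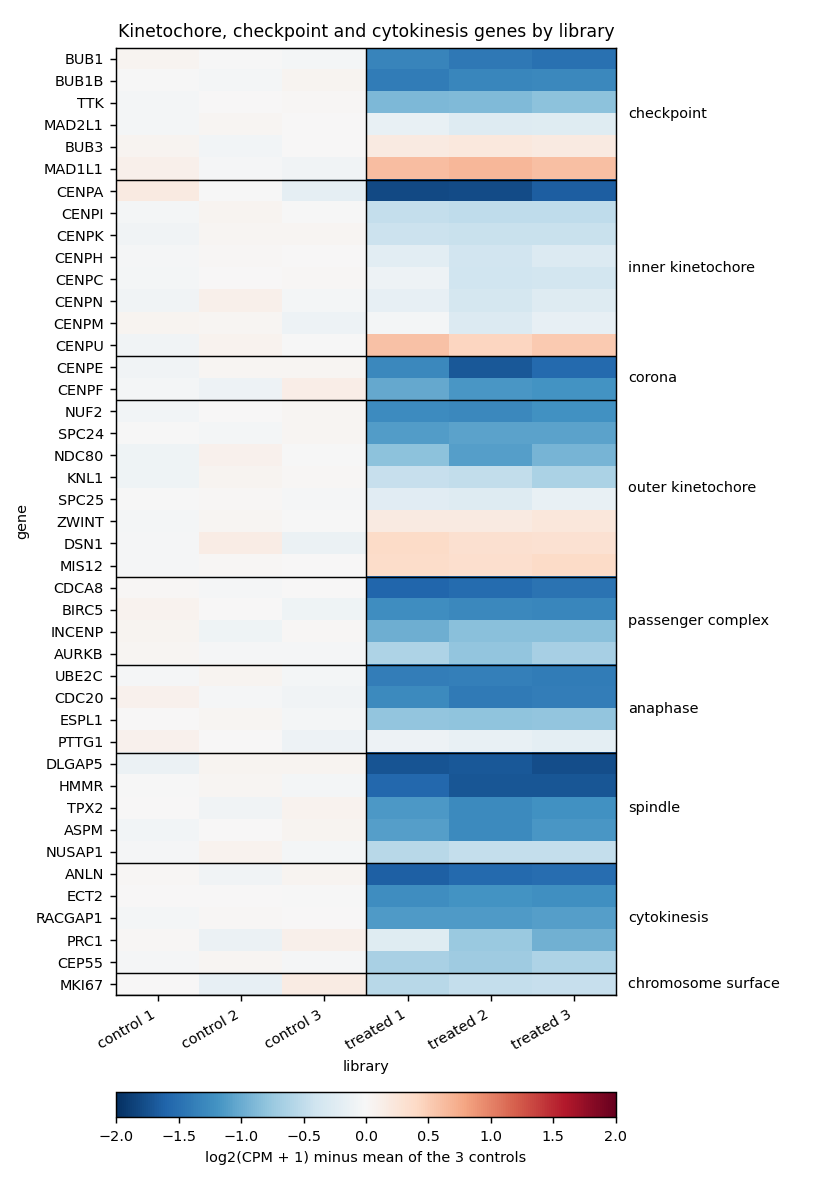
Level of each of the 43 genes in each library, as log2(CPM + 1) minus the mean of the 3 controls, with genes in rows by role and libraries in columns. Blue is below and red above the control mean; the treated columns are blue for the 37 genes called lower, palest for PTTG1 and CENPM, and red for the 6 called higher.

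The falling and the rising genes were set beside their promoters, because CHR is a known element of this gene class. RefSeq promoter sequences (GRCh38.p14, 250 bases before to 50 after the annotated start) were at hand for 34 of the 43 genes. BUB3, TTK, CENPH, CENPM, KNL1, BIRC5, UBE2C, TPX2 and RACGAP1 had no entry. CHR was searched as TTTGAA or TTCGAA on either strand. It was in the window of 24 of the 34 genes (70.6%), as it was in that of 19.5% of all 27305 genes with a promoter entry, and 15.7% of the 11332 tested ones. In 21 of the 24 genes the copy nearest the start began within 50 bases of it. The sequences below run 5′ to 3′ along the gene, from 100 bases before the start to 50 after it, with matches to CHR and to CCAAT (or its reverse, ATTGG) in capitals. Shown first are the 3 genes with a CHR match that fell most: CENPA (chr2:26785956-26786105, plus strand), DLGAP5 (chr14:55191536-55191685, minus strand) and HMMR (chr5:163460532-163460681, plus strand).
CENPA: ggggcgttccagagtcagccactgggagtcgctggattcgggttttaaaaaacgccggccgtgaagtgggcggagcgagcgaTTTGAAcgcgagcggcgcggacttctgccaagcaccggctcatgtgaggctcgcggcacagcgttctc
DLGAP5: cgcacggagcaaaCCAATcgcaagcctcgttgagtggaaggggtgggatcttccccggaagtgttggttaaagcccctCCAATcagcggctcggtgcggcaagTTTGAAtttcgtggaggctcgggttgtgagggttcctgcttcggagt
HMMR: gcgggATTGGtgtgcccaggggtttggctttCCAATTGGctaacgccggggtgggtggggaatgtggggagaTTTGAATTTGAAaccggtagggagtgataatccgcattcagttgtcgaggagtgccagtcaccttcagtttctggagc

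In CENPA the match began 18 bases before the start, in DLGAP5 3 bases after it, and HMMR held a pair of adjoining copies at 28 and 22 bases before it. DLGAP5 carried CCAAT at 87 and 22 bases before the start. HMMR carried a CCAAT and an ATTGG that overlap in CCAATTGG. A match is a stretch of letters and not a shown binding site. The 3 genes with a CHR match and the smallest fall, or a rise, were MAD2L1 (chr4:120066799-120066948, minus strand), SPC25 (chr2:168890381-168890530, minus strand) and ZWINT (chr10:56361210-56361359, minus strand).
MAD2L1: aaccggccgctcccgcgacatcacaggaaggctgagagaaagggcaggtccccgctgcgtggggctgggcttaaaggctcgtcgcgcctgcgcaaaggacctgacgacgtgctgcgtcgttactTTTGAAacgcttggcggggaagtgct
SPC25: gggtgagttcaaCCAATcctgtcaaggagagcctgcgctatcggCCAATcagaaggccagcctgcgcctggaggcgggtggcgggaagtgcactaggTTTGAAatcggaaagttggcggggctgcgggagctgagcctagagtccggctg
ZWINT: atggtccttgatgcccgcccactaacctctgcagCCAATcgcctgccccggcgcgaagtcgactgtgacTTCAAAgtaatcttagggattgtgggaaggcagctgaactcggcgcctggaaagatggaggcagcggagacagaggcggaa

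Their matches also lay close to the start: 24 bases after it in MAD2L1, 3 before it in SPC25 and 31 before it, as TTCAAA, in the ZWINT entry shown (ZWINT has a further entry, where the match nearest the start lies 17 bases before it). The 2 genes that rose most, chosen after their values were seen, are MAD1L1 (chr7:2232896-2233045, minus strand) and CENPU (chr4:184734047-184734196, minus strand), and neither held a CHR match in the window.
MAD1L1: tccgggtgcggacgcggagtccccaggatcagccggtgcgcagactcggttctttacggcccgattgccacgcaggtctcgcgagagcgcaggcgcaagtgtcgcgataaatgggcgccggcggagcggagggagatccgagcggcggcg
CENPU: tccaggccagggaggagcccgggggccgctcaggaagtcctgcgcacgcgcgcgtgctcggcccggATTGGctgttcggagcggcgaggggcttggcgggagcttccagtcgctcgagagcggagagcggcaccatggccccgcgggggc

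Of the 24 genes with a CHR match, 23 were called lower and only ZWINT higher, with a median log2 change of -1.05. Of the 10 without one, 6 were lower (CENPI, CENPK, CENPE, SPC24, AURKB and PTTG1) and 4 higher (MAD1L1, CENPU, DSN1 and MIS12), with a median of -0.30. CENPE and SPC24, without a match, still fell by more than 2-fold. Over all tested genes with a promoter entry, 37.7% of those with the match and 33.7% of those without were called lower, with median log2 changes of -0.03 and 0.01. CCAAT, in either orientation, was in 76.5% of the 34 promoters, 39.7% of all genes with an entry and 42.9% of the tested ones. An E2F motif (TTTCCCGC, TTTCGCGC, TTTGCCGC or TTTGGCGC, either strand) was in 4 of the 34, CENPA, CENPU, MIS12 and NUSAP1, in 3.99% of all genes with an entry and in 6.52% of the tested ones. These shares are descriptions of letters in a window, and binding was not measured here.

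**Figure D2:**
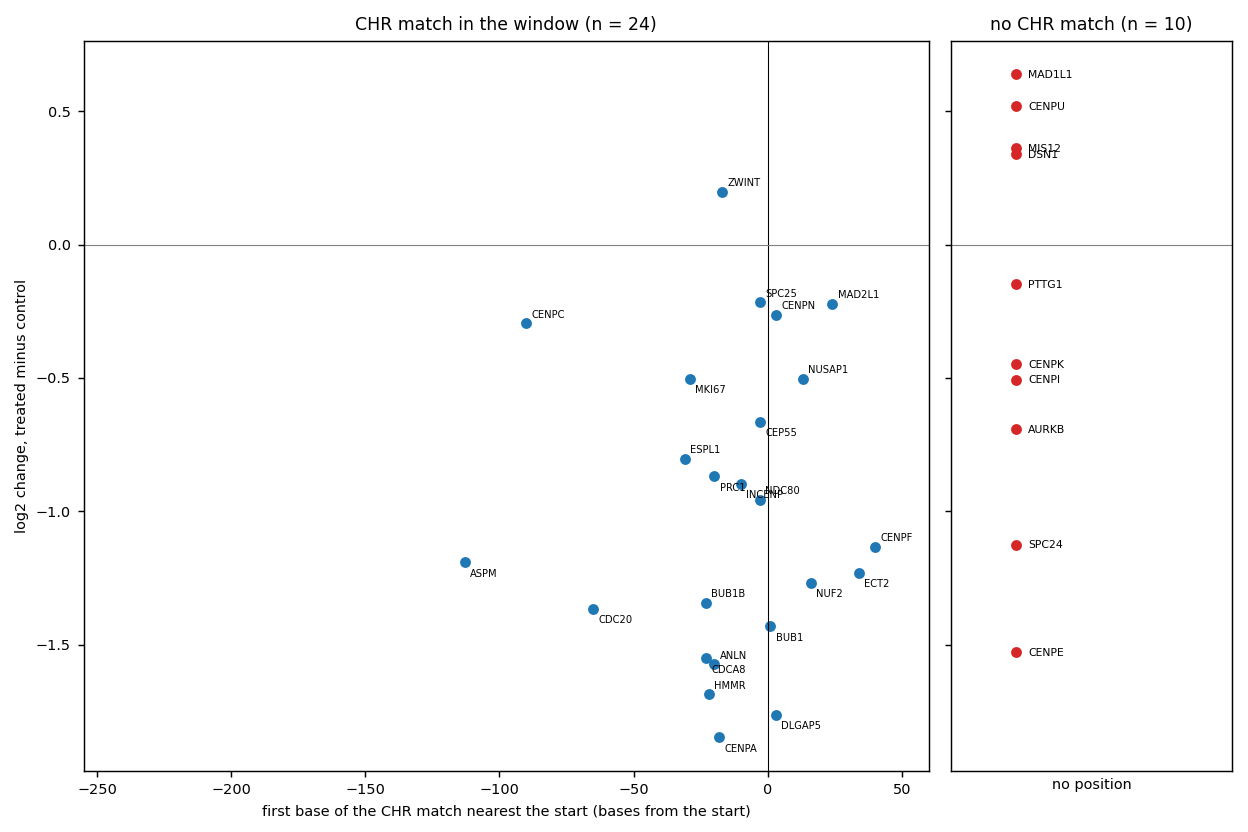
Log2 change (treated minus control, vertical axis) of the 34 genes with a promoter entry; on the left the 24 with a CHR match against the position of the match nearest the start in bases, on the right the 10 without a match. Matches cluster near position 0, ZWINT is the only gene above 0 on the left, and 4 of the 10 genes on the right are above 0.

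Among the 6 checkpoint genes, the kinases and the kinase-like BUBR1 fell most, MAD2L1 fell slightly, and BUB3 and MAD1L1, which hold partners at the kinetochore, rose. BUB1, the kinase that marks the inner centromere (ENSG00000169679, GRCh38 chromosome 2, 110637698 to 110678114), was at 158, 151 and 147 CPM in the controls and 60.3, 55.8 and 53.1 CPM in the treated libraries. Every treated value lay far below every control value, a log2 change of -1.43 (SE 0.056, edgeR adjusted p = 3.09e-32). BUB1B, which encodes BUBR1, the inhibitor of CDC20, went from 124, 121 and 128 CPM to 46.6, 49.8 and 50.3 CPM, a log2 change of -1.34 (SE 0.057). TTK, the MPS1 kinase that starts checkpoint signalling, fell to 54.5% of control (-0.88). MAD2L1, the MAD2 protein that closes around CDC20, fell only to 85.7% (log2 change -0.22).

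BUB3, the adaptor that docks BUB1 and BUBR1 on KNL1, stood at 309, 285 and 297 CPM in the controls and at 338, 343 and 338 CPM in the treated cells. The groups did not overlap, and the log2 change was 0.19 (SE 0.046, edgeR adjusted p = 0.00023). MAD1L1, the MAD1 anchor of MAD2 (ENSG00000002822, chromosome 7, 1815793 to 2233243), rose from 49.4, 44.8 and 43.4 CPM to 71.1, 73.4 and 69.9 CPM. At 0.64 (SE 0.063) it had the largest rise of the 43 genes. Neither rise was called when tested against 1.5-fold, a test that called 11.9% of all tested genes higher and 7.33% lower.

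Among the 8 inner kinetochore genes of the 43, CENPA stood apart from the others. CENPA (ENSG00000115163, chromosome 2, 26764289 to 26801067) was at 42.5, 37.2 and 32.7 CPM in the controls and at 9.97, 10.0 and 11.2 CPM after treatment. The controls spread by 13.2% of their mean, yet the lowest control (32.7 CPM) stood far above the highest treated library (11.2 CPM), and the log2 change of -1.85 (SE 0.096) was the largest fall of the 43 genes. The 7 genes of the constitutive centromere network among the 43 moved much less. Their log2 changes lay between -0.51 and 0.52, with a median of -0.30. Of the 50 further genes described below, CENPL of the same network (-0.56) and the CENPA chaperone HJURP (-0.71) fell by more than these 7. Both are named here after their values were seen. CENPI (-0.51), CENPK (-0.45) and CENPH (-0.30), which form 1 subcomplex with CENPM, fell. So did CENPN (-0.26), a reader of the CENPA nucleosome, and CENPC (-0.29), its link to the outer kinetochore. CENPN shares 20.1% of its exon bases with other genes.

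CENPU, a subunit of the complex that docks Polo-like kinase 1, went the other way. It rose from 72.7, 79.9 and 75.5 CPM to 114, 103 and 109.6 CPM, with no overlap and a log2 change of 0.52 (SE 0.056, edgeR adjusted p = 2.45e-12). CENPU shares 11.7% of its exon bases with PRIMPOL, which held 336 to 404 counts in the controls and 412 to 462 in the treated libraries, and the part of shared reads was not tested. CENPM was at 63.2, 62.1 and 56.7 CPM in the controls and at 59.0, 49.997 and 53.7 CPM in the treated libraries. The groups overlapped, and its log2 change of -0.16 (edgeR adjusted p = 0.0266) was lost with DESeq2 (adjusted p = 0.0527), with 2 other scalings, and when any of 4 libraries was left out (control 1 or 2, treated 2 or 3).

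Both corona genes, whose products coat kinetochores before attachment, fell. CENPE, a kinesin that carries chromosomes to the equator, was at 119, 128 and 128 CPM in the controls and at 50.5, 37.7 and 41.8 CPM in the treated cells, a log2 change of -1.53 (SE 0.065). Its treated libraries spread by 15.1% of their mean, with replicate 1 highest. CENPF, a large microtubule- and dynein-linked protein, went from 312, 298 and 352 CPM to 157, 142 and 139.6 CPM (-1.13, SE 0.053).

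Of the 8 outer kinetochore genes, 5 fell and 3 rose. In the NDC80 complex, which binds microtubules directly, NDC80, SPC24 and NUF2 lost between 48.5% and 58.5% of their level and SPC25 lost 13.9%. NUF2 was at 104, 109 and 111 CPM in the controls and at 44.7, 43.6 and 46.2 CPM after treatment (log2 change -1.27, SE 0.059). SPC24 was at 41.0, 40.3 and 42.7 CPM and then at 18.6, 19.1 and 19.2 CPM (-1.13, SE 0.079). NDC80 fell to 51.5% of control (-0.96), and SPC25, which pairs with SPC24, to 86.1% (-0.22, edgeR adjusted p = 0.00543).

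The MIS12 complex, the platform between the inner and outer layers, went both ways. MIS12 was at 63.4, 65.6 and 64.6 CPM in the controls and at 83.2, 81.4 and 84.2 CPM in the treated libraries, a log2 change of 0.36 (SE 0.057). MIS12 shares 9.53% of its exon bases with DERL2, which had 1628 to 1723 counts in the controls and 1739 to 1801 after treatment. DSN1 rose from 74.2, 83.3 and 69.0 CPM to 98.2, 94.6 and 93.2 CPM (0.34, SE 0.059). The other subunits, PMF1 and NSL1, are among the 50 further genes described below and are named here after their values were seen. PMF1 was called lower (-0.77, edgeR adjusted p = 3.73e-10), and shares 23.3% of its exon bases with PMF1-BGLAP. NSL1 was also called lower (-0.23, edgeR adjusted p = 0.00291), but not with total-count scaling (adjusted p = 0.199). KNL1, the scaffold for BUB1 and BUB3, fell to 69.2% of control (-0.53). Its partner ZWINT, a link to the ROD-ZW10-ZWILCH complex, was at 168, 178 and 172 CPM in the controls and at 195, 196 and 203 CPM after treatment. The groups of ZWINT did not overlap (0.20, SE 0.048, edgeR adjusted p = 0.000293).

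All 4 genes of the chromosomal passenger complex, which corrects faulty attachments and later directs the cleavage furrow, fell, but by different amounts. CDCA8, the borealin subunit, went from 185, 180 and 184 CPM to 60.2, 62.0 and 65.4 CPM (log2 change -1.55, SE 0.053). BIRC5, survivin, went from 269, 258 and 240.0 CPM to 108, 104 and 103 CPM (-1.29, SE 0.051). INCENP, the scaffold, fell to 53.7% of control (-0.90). AURKB, the kinase itself, kept most of its level, with 142, 136 and 135 CPM in the controls and 89.2, 79.4 and 86.6 CPM in the treated cells (-0.69, SE 0.054).

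Of the 4 genes for the start of anaphase, CDC20 and UBE2C, whose products work with APC/C, fell most. CDC20, its activator and the target of the checkpoint, was at 353, 328 and 318 CPM in the controls and at 136, 124 and 128 CPM after treatment (log2 change -1.37, SE 0.050). UBE2C, its ubiquitin-conjugating enzyme, went from 178, 187 and 175 CPM to 68.5, 69.3 and 67.8 CPM (-1.39, SE 0.053). ESPL1, the protease separase, fell to 57.3% of control (-0.80). PTTG1, its inhibitor securin, was at 157, 149 and 137 CPM in the controls and at 138, 133 and 129 CPM in the treated libraries. Those ranges overlap, and the call (-0.15, edgeR adjusted p = 0.0117) was lost with total-count or upper-quartile scaling and without control replicate 1 (adjusted p = 0.0994) or treated replicate 3 (adjusted p = 0.0831).

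The 5 spindle genes all fell, 4 of them by at least 2-fold. DLGAP5, which stabilises kinetochore fibres (ENSG00000126787, chromosome 14, 55148112 to 55191678), went from 112, 127 and 126 CPM to 35.9, 36.7 and 34.9 CPM. That is 29.5% of control, a log2 change of -1.76 (SE 0.061, edgeR adjusted p = 4.33e-35). HMMR, a spindle pole protein (ENSG00000072571, chromosome 5, 163460203 to 163491945), went from 128, 132 and 126 CPM to 42.8, 38.7 and 38.7 CPM (-1.69, SE 0.059). TPX2, the activator of Aurora A, fell to 43.1% (-1.21) and ASPM, a focusing factor of spindle poles, to 43.8% of control (-1.19). NUSAP1, a microtubule bundler, changed least, from 197, 211 and 194 CPM to 137, 144 and 145 CPM (-0.50, SE 0.050).

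Cytokinesis genes fell as well. ANLN, anillin, the scaffold of the contractile ring (ENSG00000011426, chromosome 7, 36389806 to 36453791), was the most abundant of the 43, with 1011, 955 and 1034 CPM in the controls. It was at 323, 340 and 346 CPM after treatment, a log2 change of -1.57 (SE 0.047). ECT2, the exchange factor that switches on RHOA at the furrow, hardly varied within groups, with 237, 237 and 234 CPM in the controls and 98.9, 102 and 100.2 CPM in the treated cells (-1.23, SE 0.049). RACGAP1, its partner in centralspindlin, fell to 45.7% of control (-1.13). CEP55, which brings the abscission machinery to the midbody, fell less, from 253, 267 and 255 CPM to 164, 157 and 168 CPM (-0.66, SE 0.048).

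PRC1, which bundles the central spindle, cannot be read like the others. It had only 51 to 70 counts in the controls and 27 to 57 in the treated libraries (log2 change -0.87, SE 0.245, edgeR adjusted p = 0.00163). Of its exon bases, 57.6% also belong to ENSG00000284946, a gene on the same strand, which held 176 to 229 counts in the controls and 71 to 107 in the treated libraries and fell by 1.47 on the log2 scale. The sources used here do not say how reads in shared exons were counted, so the level of PRC1 is uncertain. It is the only one of the 43 with over 50% of its exon bases shared. Without it 36 of 42 were called lower, and the median log2 change was -0.84 rather than -0.87.

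MKI67, whose product Ki-67 coats mitotic chromosomes and is a common marker of proliferating cells, fell only to 70.6% of control. It was at 519, 461 and 577 CPM in the controls, the widest spread but CENPA's among the control libraries, and at 354, 373 and 373 CPM after treatment. The groups did not overlap (log2 change -0.50, SE 0.051, edgeR adjusted p = 2.98e-13).

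**Figure D3:**
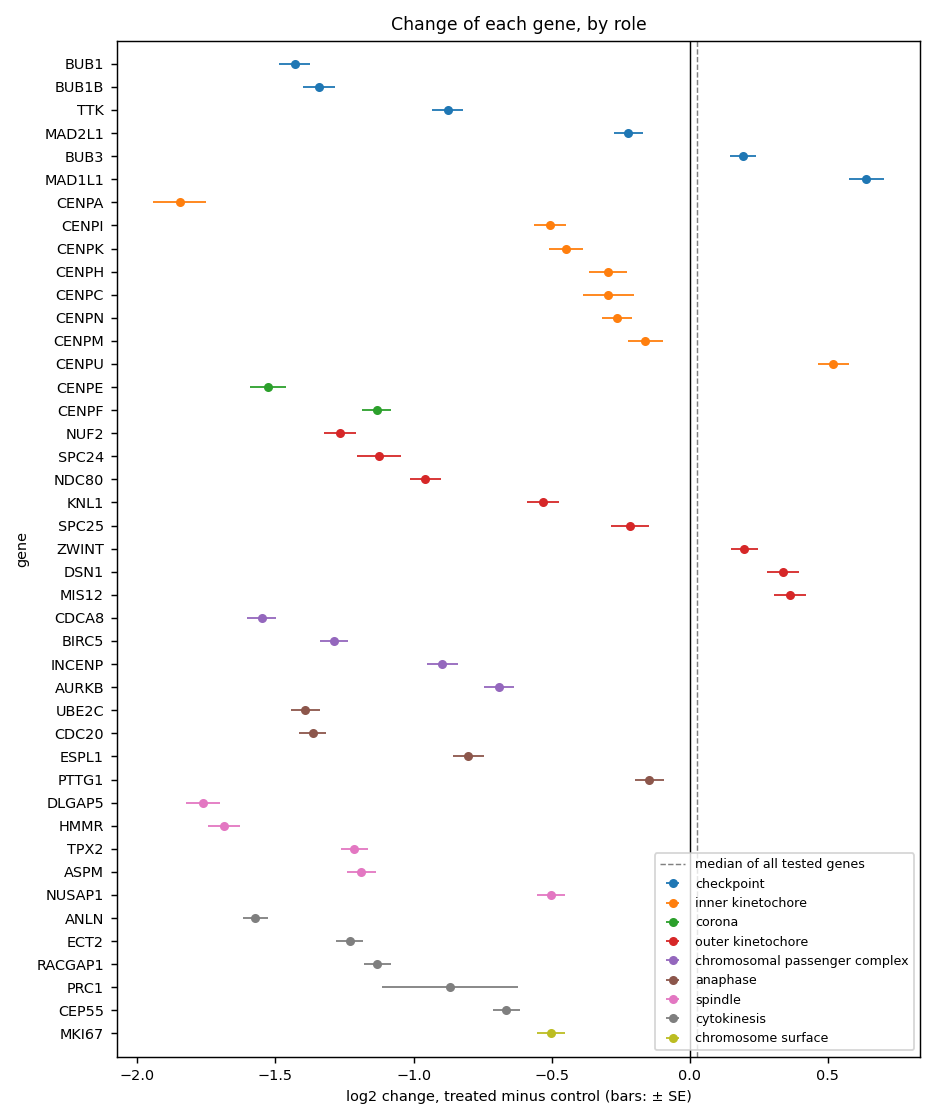
Log2 change (treated minus control, points) of the 43 genes with its standard error (bars), grouped by role, with lines at 0 and at the median of all tested genes. The 6 points to the right of 0 are MAD1L1, BUB3, CENPU, MIS12, DSN1 and ZWINT, and PRC1 has the widest bar.

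Levels of different genes were compared per kilobase of exon (RPKM, from TMM-normalised CPM). In the controls ANLN (166 ± 6.73 RPKM, SD, n = 3), CDC20 (163 ± 8.66), UBE2C (140 ± 4.73) and TPX2 (134 ± 6.71 RPKM) led. ANLN and CDC20 did not differ beyond their spread, nor did UBE2C and TPX2. In the treated cells ZWINT led with 83.3 ± 1.69 RPKM, followed by PTTG1 (66.2 ± 2.32) and CDC20 (63.4 ± 3.16 RPKM). PTTG1 and CDC20 did not differ beyond their spread, and ZWINT lay above both. ZWINT had been the eighth and PTTG1 the seventh in the controls. DLGAP5 went from rank 19 to 34 and BUB1 from 27 to 35 of 43, while DSN1 went from 24 to 12 and CENPU from 26 to 11. Across the 43 genes the log2 change was only loosely related to the control level (Pearson r = -0.23, Spearman rho = -0.23) and to exon length (r = -0.03, rho = -0.09). These are descriptions over genes that share the same 6 libraries.

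Some partners fell by similar amounts and so kept nearly the same proportion, and others did not. BUB1 and BUB1B were at 37.1% and 39.4% of control, ECT2 and RACGAP1 at 42.6% and 45.7%, and CDC20 and UBE2C at 38.8% and 38.1%. The pairs that follow are ones whose members changed by unequal amounts. BUB1 was at 0.704, 0.729 and 0.682 of the BUB3 level per kilobase in the controls and at 0.246, 0.224 and 0.216 in the treated libraries. BUB1B relative to BUB3 went from 0.776 ± 0.031 to 0.267 ± 0.010 (SD, n = 3). CENPA relative to CENPN went from 0.538 ± 0.086 to 0.179 ± 0.016. NUF2 relative to SPC25 went from 1.38 ± 0.058 to 0.668 ± 0.0052, and NDC80 relative to SPC25 from 1.98 ± 0.097 to 1.18 ± 0.11. CDC20 relative to MAD2L1, the protein that captures it, went from 8.05 ± 0.59 to 3.64 ± 0.046. Securin relative to separase (PTTG1 to ESPL1) moved the other way, from 6.17 ± 0.34 to 9.72 ± 0.33, and so did AURKB relative to CDCA8, from 0.841, 0.832 and 0.810 to 1.63, 1.41 and 1.46. In none of these pairs did the control and treated ratios overlap. The pairs were chosen for unequal changes, so this lack of overlap is no separate result. The ratios describe transcripts, and protein was not measured.

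**Figure D4:**
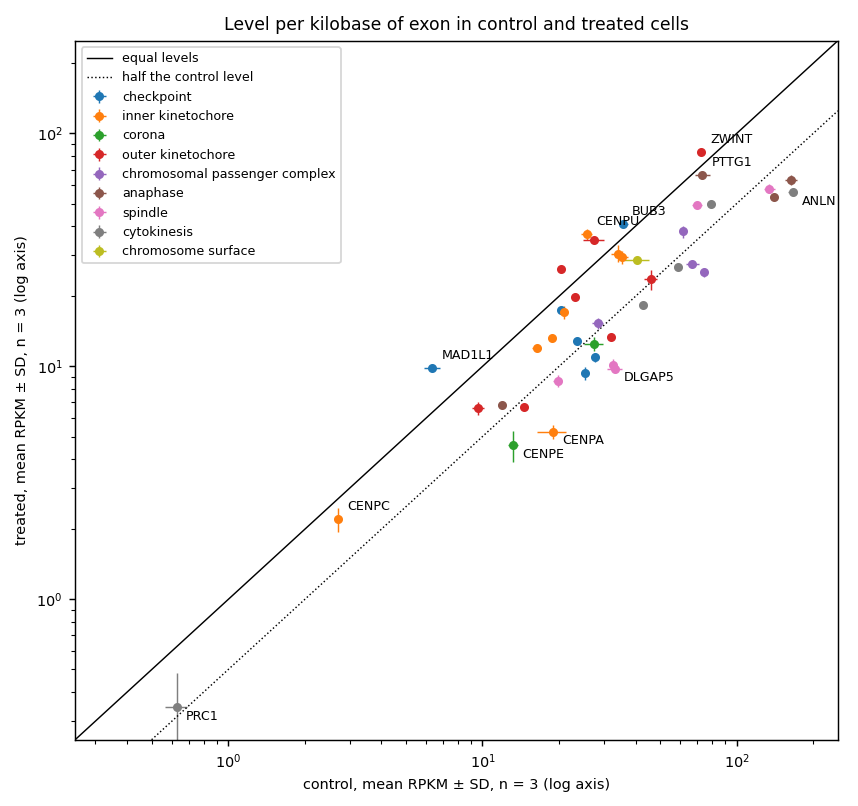
Mean level per kilobase of exon in treated (vertical) against control cells (horizontal), in RPKM on log axes, with SD over 3 libraries as bars. Genes such as DLGAP5, CENPA and ANLN lie below the dotted line of a 2-fold fall, and MAD1L1, CENPU, BUB3 and ZWINT lie above the line of equal levels.

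Other genes of the same machinery, listed by function but with earlier results of these data known, also mostly fell. Of 50 further kinetochore, checkpoint, spindle and cytokinesis genes, 40 (80%) were lower, 12 of them at least 2-fold. Among all tested genes 31.2% were lower and 4.62% lower by at least 2-fold. Of the 50, 5 were higher, beside 32.3% of all tested genes, and 5 passed no threshold. Their median log2 change was -0.57. DEPDC1 (-1.64), KIF23, the kinesin of centralspindlin (-1.42), and BORA, a cofactor in Polo-like kinase 1 activation (-1.38), fell most. The 5 that rose were CENPQ (0.49), CENPP (0.39), SKA1 (0.41), CENPW (0.29) and the APC/C inhibitor FBXO5 (0.16). CENPQ and CENPP belong to the complex of CENPU. In that complex CENPO was called lower (-0.39), and ITGB3BP, which encodes CENPR, was not called (-0.03). BORA shares 37.0%, CENPP 39.5% and CENPO 31.4% of their exon bases with other genes.

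The APC/C core itself changed little. Of its 14 subunits 12 were called lower, beside 31.2% of all tested genes. Only CDC27 fell by over 2-fold (-1.16), and the median was -0.32. ANAPC15 (-0.87), which shares 27.1% of its exon bases with other genes, and ANAPC1 (-0.60) followed, and ANAPC13 rose (0.49). With libraries scaled by total counts alone 5 subunits were lower, beside 23.1% of all tested genes, so most of these small falls depend on the scaling. That scaling moved the median log2 change of all tested genes from 0.02 to 0.15 and the share of higher genes among the calls from 50.8% to 63.8%. In the same way MAD2L1 (adjusted p = 0.115), CENPC (0.111), CENPM (0.675), SPC25 (0.275) and PTTG1 (0.751) lost their calls with it, so their small falls are relative to the TMM scaling. The other 32 falls and all 6 rises were called with either.

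Cohesin and condensin genes were lower in 14 of 18 (77.8%), beside 31.2% of all tested genes, with a median of -0.44. The condensin genes NCAPD2 (-1.25), SMC4 (-1.13) and NCAPH (-0.84) fell most, and SMC1A (0.15) and CDCA5 (0.16) were higher. SMC4 shares 25.6% of its exon bases with other genes. Genes of mitotic entry were lower in 11 of 15 (73.3%), beside the same 31.2%, with a median of -0.76. PLK1 (-2.36), CCNB1 (-2.004) and AURKA (-1.62) led the falls. PKMYT1 (0.31) and CDC25A (0.24) were higher, and PKMYT1 shares 31.6% of its exon bases with other genes. Genes of DNA replication, from licensing to the fork, did not follow. Beside 32.3% higher and 31.2% lower among all tested genes, 13 of these 25 were higher and 5 (20%) lower, with a median of 0.14. PCNA (0.85) had their largest rise, and DBF4 (-1.13), GINS2 (-0.82), MCM6 (-0.74), POLA1 (-0.45) and MCM5 (-0.44) were lower. These lists are set side by side, and the differences between their medians were not tested.

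**Figure D5:**
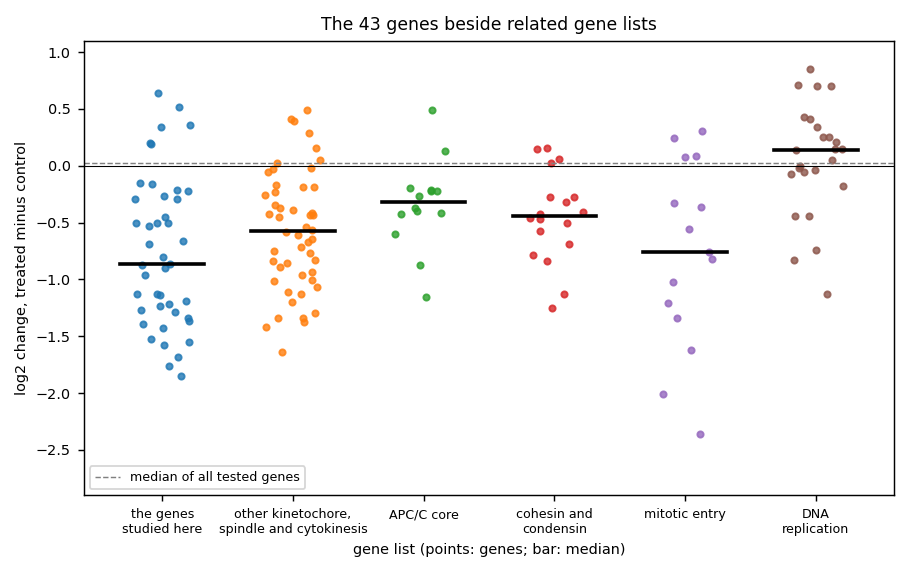
Log2 change (treated minus control, vertical axis) of the 43 genes and of 5 related gene lists; points are genes, thick bars list medians, the dashed line the median of all tested genes. The medians lie at -0.87 for the 43 genes, -0.57, -0.32, -0.44 and -0.76 for the next 4 lists, and 0.14 for DNA replication.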

How the data were processed

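The 6 libraries of AC16 cells were poly(A)-selected and unstranded, per the labels' protocols. What the authors deposited is a single table of raw counts per Ensembl gene with exon coordinates and lengths, per the file header. Tools named in the submitters' processing notes are STAR, featureCounts of Subread, and SAMtools, with GRCh38 as the build; the annotation release and counting options are not given in the sources used here. A reference name table gave symbols for 58179 of 58299 identifiers. The 43 genes and all lists were chosen with earlier results of these data known.

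Genes were filtered with filterByExpr (minimum count 10), scaled by TMM and tested as treated minus control with edgeR 4.0.16 (quasi-likelihood F test; R 4.3.3), with Benjamini-Hochberg adjustment over 15575 genes and a threshold of 0.05. The standard error is the log2 change over the square root of F. The code was tested on simulated data. Chi-square over degrees of freedom between replicates was 3.00 to 4.01, so each pair differed by more than counting noise. Values per library are given for the 2 genes of each role with the largest change and the 1 with the smallest; MAD1L1, MIS12 and DSN1 were added after their values were seen. Of other lists, the 3 largest changes and the genes against the list's direction are named. PMF1, NSL1, CENPL, HJURP, CENPO and ITGB3BP were named after their values were seen. Motifs were searched with Python 3.11.15 in RefSeq promoters. Alternatives tried were other scalings (RLE, total count, upper quartile) and filters, DESeq2 1.42.0, limma-voom (limma 3.58.1), a replicate block, each library left out, a threshold of 0.01, and glmTreat against 1.5-fold.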

Additional observations from a re-analysis of the deposited data

How the results depend on the processing

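The median log2 change of the 43 genes stayed between -0.74 with total-count and -0.888 with no filter; it was -0.814 with upper-quartile scaling, and -0.801 to -0.88 when a library was left out. The count of lower genes was 32 with total-count scaling and 35 to 37 without a library, and the 6 rises were called in each of these. Tested against 1.5-fold with glmTreat, 2993 of 15575 genes were called, 1141 of them lower (7.33% of all tested). Lower were 23 of the 43, 22 of the 50 further pathway genes and 2 of 14 APC/C subunits. So were 4 of 18 cohesin and condensin genes, 8 of 15 mitotic entry genes and 3 of 25 replication genes. Of the 43, 0 were higher, beside 11.9% of all tested genes, and the largest rise, of MAD1L1, was estimated at 1.56-fold. With total-count scaling 5 APC/C subunits were lower. With the replicate number as a block (replicate block), 37 of the 43 were lower and 6 higher, their median was -0.876, and 9653 genes were called. Same-numbered libraries did not deviate together (correlations -0.0468, -0.0282 and -0.0153). The labels do not say whether the numbers pair cultures, and these correlations cannot settle it. No direction of the 43 reversed. The share of the 34 promoters with CHR was 67.6% for TTTGAA alone (13.9% of tested genes), 67.6% within 100 bases before the start to 50 after it (6.84%), and 76.5% with TTTAAA added (23% of tested genes). PRC1 had the fewest counts of the 43 genes, 27 in its lowest library.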
